A study of Homo sapiens with 4 samples.

Results

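Members of the PPAR and RXR nuclear receptor system were examined in a profile of H3K27ac, the acetylated form of histone H3 that marks active promoters and enhancers. The set comprised 9 genes: the PPAR receptors PPARA, PPARD and PPARG, the RXR receptors RXRA, RXRB and RXRG, the coactivators PPARGC1A and PPARGC1B, and the corepressor NCOR1. Every line of the authors' deposited table that names one of these genes was taken, which gave 111 distinct regions of the 91107 in the whole table. The study used A375, an established human melanoma cell line grown in DMEM with serum, and measured H3K27ac by chromatin immunoprecipitation sequencing in 4 libraries. One group of 2 libraries came from cells given isopropanol, the vehicle, for 48 hours. The other 2 came from cells given the medium-chain fatty acid octanoate at 1 mM for the same time. All libraries are from 1 cell line, and nothing in the labels says whether the 2 of a group came from separate cultures. The file holds 1 comparison of the 2 groups with no value per library, so depth and the spread between libraries are unknown, and each error below is the standard error (SE) that the authors' DESeq2 model gave. Its header does not name the numerator of the fold change, so changes are called positive or negative and are not assigned to octanoate.

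PPARs are ligand-activated transcription factors for which fatty acids and their derivatives are natural ligands. Each binds DNA as a heterodimer with an RXR at response elements built from repeats of the half-site AGGTCA. PPARA drives fatty acid oxidation in liver, PPARD is expressed in many tissues, and PPARG directs adipocyte differentiation. RXRs are the shared partners of many other nuclear receptors. PPARGC1A and PPARGC1B encode the coactivators PGC-1 alpha and PGC-1 beta, which promote mitochondrial biogenesis, and in part of melanomas PPARGC1A is expressed under control of the lineage factor MITF. NCOR1 is the scaffold of a corepressor complex that contains the histone deacetylase HDAC3.

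The DNA just before 4 receptor or coactivator starts is shown: the first RefSeq starts of PPARG and PPARGC1A, which lie far from the starts the authors used, the RXRA start, which no region covers, and the RXRG start, which its own region covers. The windows are the 250 bases before a RefSeq start on GRCh38.p14, written 5′ to 3′ on the gene's strand. Capitals mark matches on either strand to the half-site AGGTCA, the E-boxes CACGTG and CATGTG and the GC-box GGGCGG, and overlapping matches form longer runs of capitals. The PPARG window, plus strand, is chr3:12287118-12287367, the RXRA window, plus strand, chr9:134326205-134326454, the PPARGC1A window, minus strand, chr4:24472906-24473155, and the RXRG window, minus strand, chr1:165445127-165445376.
PPARG: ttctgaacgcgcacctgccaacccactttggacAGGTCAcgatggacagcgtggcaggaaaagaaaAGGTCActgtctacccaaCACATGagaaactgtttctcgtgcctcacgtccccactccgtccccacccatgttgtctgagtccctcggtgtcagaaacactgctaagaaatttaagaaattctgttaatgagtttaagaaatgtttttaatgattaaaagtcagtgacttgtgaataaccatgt
RXRA: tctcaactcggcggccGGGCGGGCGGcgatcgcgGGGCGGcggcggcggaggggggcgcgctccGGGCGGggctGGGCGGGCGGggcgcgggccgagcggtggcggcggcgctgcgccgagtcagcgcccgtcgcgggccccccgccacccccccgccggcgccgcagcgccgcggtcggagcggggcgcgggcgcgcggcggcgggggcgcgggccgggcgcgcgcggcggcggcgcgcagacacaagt
PPARGC1A: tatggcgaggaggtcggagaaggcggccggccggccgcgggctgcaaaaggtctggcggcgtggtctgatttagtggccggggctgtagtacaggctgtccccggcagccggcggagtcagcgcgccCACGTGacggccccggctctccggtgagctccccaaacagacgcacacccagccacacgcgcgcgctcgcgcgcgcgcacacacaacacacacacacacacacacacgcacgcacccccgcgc
RXRG: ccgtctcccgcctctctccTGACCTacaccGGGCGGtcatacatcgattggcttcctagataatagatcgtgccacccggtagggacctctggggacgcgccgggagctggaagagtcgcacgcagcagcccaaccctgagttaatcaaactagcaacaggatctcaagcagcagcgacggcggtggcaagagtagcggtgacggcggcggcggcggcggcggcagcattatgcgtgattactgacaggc

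These windows differed in composition. The RXRA window had a GC content of 89.2% and 59 CpG dinucleotides, and the PPARGC1A window 70.8% and 33. The RXRG window had 62.0% and 24 CpG, while the PPARG window had 44.8% and 8 CpG, against medians of 58.0% and 11 over all 34943 RefSeq windows of the same length. The PPARG window held 2 half-sites and the RXRG window 1, a motif present in 12.1% of all windows. An exact repeat, 2 copies of AGGTCA in the same direction with 1 base between, matched none of the 19 windows of the 9 genes and 0.0172% of all windows. Inexact copies were not searched. The windows also leave out starts: none lies just before the authors' starts of PPARA, PPARG, PPARGC1A or PPARGC1B. The E-box CACGTG, bound by MITF among other factors, had 1 match in the PPARGC1A window shown and occurs in 6.32% of all windows. The other PPARGC1A window had 0 matches to CACGTG. The E-box CATGTG had 1 match in that other window and 1 in the PPARG window shown, and occurs in 9.45% of all windows. Binding by MITF was not measured. GC-boxes numbered 6 in the RXRA window, and 42.5% of all windows hold at least 1. A match is a description of the letters only.

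Where the mark lay was described first, with levels divided by the width of each region, since levels of different loci can be compared only per length. Of the 111 regions, 77 lay inside the RefSeq span of their gene, 10 across one of its ends and 24 outside it. The gene named with a region is the authors' assignment and does not show that the region controls that gene. Mean levels in the authors' deposited table, which pool both groups, ran from 1.97 to 304 over the 111 regions in the authors' normalized units, and levels per kb from 7.07 to 30.1. The median was 14.3 per kb, beside 15.3 per kb over all regions of the table. The mark was measured in a bulk population, so a mark in fewer cells and a weaker mark in each cell cannot be told apart.

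In the authors' deposited table, 7 of the 9 genes had a region over the start the authors used, read as a distance of 0. The strongest of these per kb was at NCOR1 (chr17:16212089-16219012), with a mean level of 199 in the authors' deposited table, or 28.8 per kb. It reached percentile 66.6 among all 10642 start regions of the table, whose median was 25.3 per kb, and it also overlaps the start of PIGL, with which it is listed as well. The PPARGC1B start (chr5:149729742-149732716) followed with 26.8 per kb. RXRB (chr6:33197150-33202899), listed together with SLC39A7, had 24.6 per kb. The other receptor starts lay lower. RXRG (chr1:165443768-165445492) had 22.4 per kb, PPARD (chr6:35342564-35344542) 20.6 per kb and PPARA (chr22:46149574-46152051) 17.8 per kb, at percentiles 35.4, 26.6 and 15.0 of all start regions. The start region of PPARG (chr3:12310870-12312469) had 12.8 per kb, at percentile 3.34. Levels carry no error between libraries here, so neighbours in this order cannot be said to differ.

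**Figure D1:**
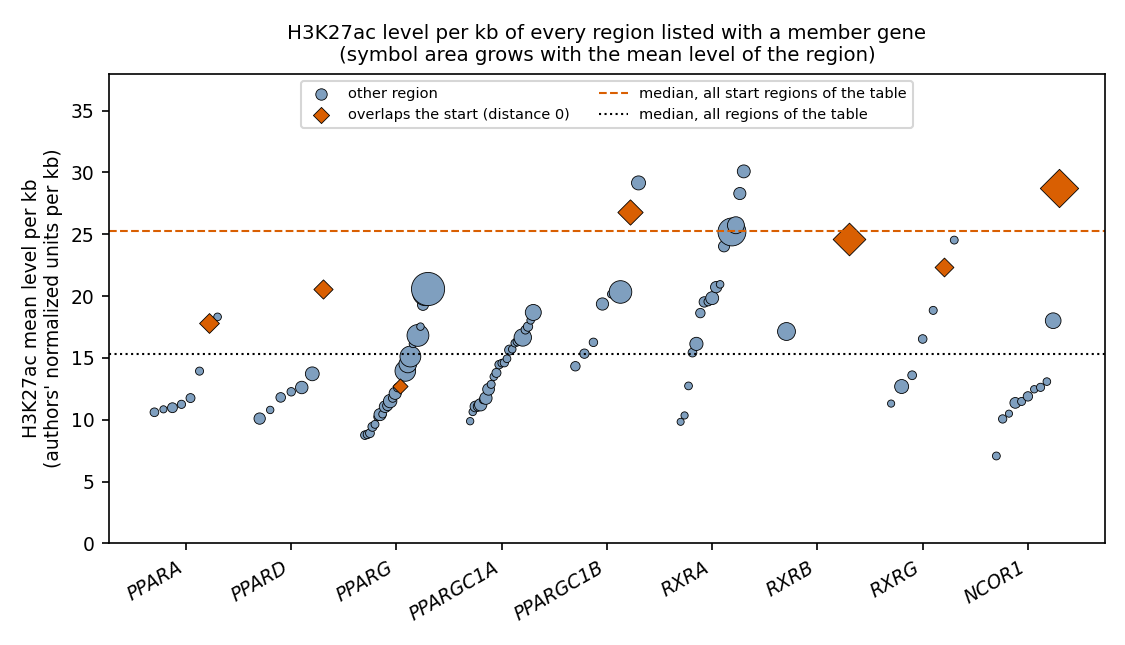
H3K27ac mean level per kb of region width (vertical axis, authors' normalized units per kb) for each of the 111 regions, by gene; diamonds are regions over the authors' start, circles all others, symbol area grows with the mean level, and lines mark the medians of all start regions (25.3, dashed) and of all regions (15.3, dotted). The start regions of NCOR1 and PPARGC1B lie above the dashed line and those of PPARA, PPARD, PPARG, RXRB and RXRG below it, while PPARGC1A and RXRA have no diamond.

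For PPARG the level at the start depends on which start is used, but it was below the median of all start regions at both starts examined. The distances in the authors' deposited table imply a start 25020 bases from the first RefSeq start of PPARG, which lies at position 12287368 of chromosome 3. That RefSeq start is covered by a region of 8752 bases (chr3:12287021-12295773) with a mean level of 177 in the authors' deposited table, or 20.3 per kb. Start regions of the whole table had a lower quartile of 20.2 per kb and a median of 25.3 per kb. The 8752-base region spans 3 of the 6 RefSeq windows of PPARG, including the one printed above. The region with the highest mean level of all 111 lay at the other end of the gene. It spanned 14784 bases (chr3:12433263-12448047), running 13703 bases past the RefSeq end of PPARG, and had a mean level of 304 in the authors' deposited table, above 99.3% of all regions of the table. Per kb it had 20.6, at percentile 78.4 of all regions, most of which lie away from starts.

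PPARG therefore carried the largest summed level of the 9 genes, spread widely. Its 26 regions summed to a mean level of 1177 in the authors' deposited table, above 98.6% of all genes, over 75.1 kb, and came to 15.7 per kb, above 21.9% of genes. RXRA carried fewer and denser regions, with 17 regions, a sum of 577 over 25.2 kb and 22.9 per kb, above 64.2% of genes. The 25 regions of PPARGC1A summed to 402 over 28.0 kb, or 14.4 per kb, and the 8 of PPARGC1B to 329 over 15.2 kb, or 21.6 per kb. Sums for the others were 327 for NCOR1, 221 for RXRB, 166 for PPARD, 115 for RXRG and 99.8 for PPARA in the authors' deposited table. NCOR1 and RXRB held 60.9% and 64.1% of their sum in the single region over the start.

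RXRA had no region over its start. The start lies in a gap of 692 bases between a region ending at 134326143 and one beginning at 134326835, and the GC-rich window printed above lies wholly in this gap. Of all 34943 RefSeq windows, 0.398% lay in such a gap of under 1 kb between 2 regions, and 52.5% were covered by a region. The upstream flank (chr9:134324961-134326143) had a mean level of 35.6 in the authors' deposited table. Its 30.1 per kb was the highest of all 111 regions. The downstream flank (chr9:134326835-134328627) had a similar mean level, 35.5 in the authors' deposited table, over a wider region, which gave 19.8 per kb. The strongest RXRA region by mean level (chr9:134377786-134386219) lay 51207 bases into the gene in the authors' deposited table, with 212, or 25.2 per kb, and covers another RefSeq start of RXRA. The median GC content of windows in such gaps was 60.0% and that of covered windows 64.8%, below the 89.2% of the RXRA window.

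PPARGC1A likewise had no region over the authors' start. The regions on either side (chr4:23888212-23889581 and chr4:23890629-23891108) lay 497 and 552 bases from it in the authors' deposited table. Their mean levels there were 22.6 and 5.56, or 16.5 and 11.6 per kb. Its region with the highest mean level (chr4:24067331-24071814) lay 177254 bases upstream in the authors' deposited table, inside the RefSeq span of the gene, with a mean level of 74.7 and 16.7 per kb. Per kb it was lower than others of the gene, such as chr4:24103585-24106857 with 18.7. RefSeq places the first start of PPARGC1A 582827 bases upstream of the authors' start. A region of 3980 bases (chr4:24469991-24473971) covers it, including the window printed above, but is listed with DHX15 and so is no member by the rule. It had a mean level of 54.9 in the authors' deposited table, or 13.8 per kb. A further 5 regions in the RefSeq span of PPARGC1A were also listed with DHX15, and none in the span of the other 8 genes was listed with outside genes only.

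**Figure D2:**
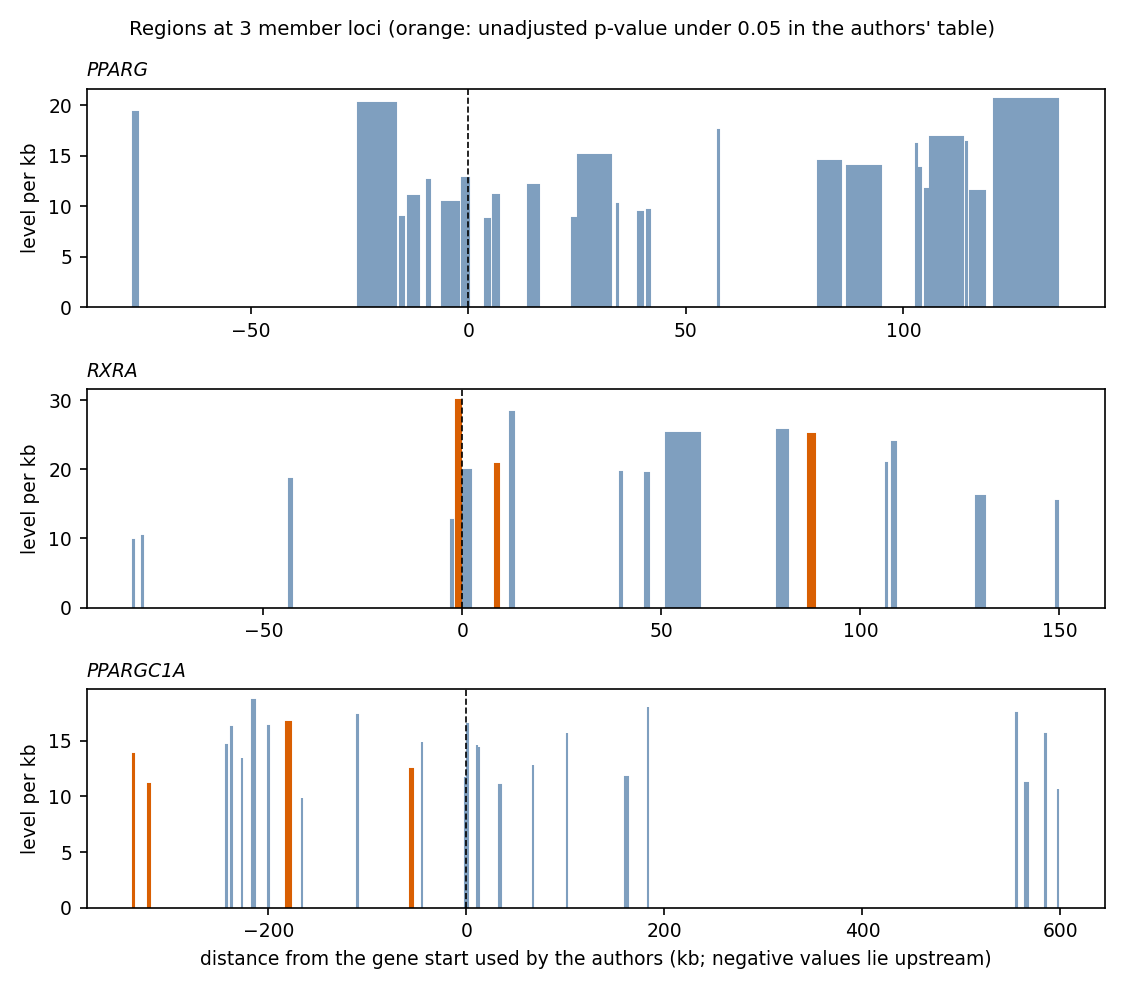
Regions listed with PPARG, RXRA and PPARGC1A, drawn to scale along the gene (horizontal axis, kb from the authors' start, dashed, with upstream to the left) with height equal to the mean level per kb; orange marks raw P under 0.05 in the authors' deposited table. PPARG has wide regions on both sides of its start and none in orange. RXRA has 3 orange regions, the tallest beside the start at 30.1 per kb. PPARGC1A has 4 orange regions, all upstream of the authors' start but inside the RefSeq span of the gene.

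How the mark changed between the groups was then read from the deposited test, DESeq2 with Benjamini-Hochberg adjustment over the table; raw P stands for the unadjusted p-value. An adjusted P exists for 45 of the 111 regions, called tested regions here, whose mean levels in the authors' deposited table were at least 18.7, and the other 66 had at most 16.3. DESeq2 called none of the 45 at an adjusted P under 0.05, where 1.67% of all 36436 tested regions in the authors' deposited table were called, 1.65% with a positive sign. At a raw P under 0.05 there were 8 of the 45, all positive, or 17.8%, against a background of 18.4% in the authors' deposited table and 17.9% for positive ones. Over all 111 regions there were 11, or 9.91%, all positive, against 8.99% and 8.68%. Among the 7 start regions 0 were called, against 0.860% of all tested start regions, and 2 had a raw P under 0.05, against 19.2%. The shares over the 45 and the 111 regions were near the background.

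The fold changes lay close to those of the table as a whole. The median log2 fold change of the 45 regions in the authors' deposited table was 0.37, beside 0.32 over all tested regions. It was 0.30 over the 111 regions, beside 0.28 over the 91107, and 81 of the 111 were positive, or 73.0% beside 73.7%. Of the 45, 38 were positive in the authors' deposited table, or 84.4%, beside 87.3% of all. The 95% interval of 44 of the 45 regions, from the fold change and SE in the authors' deposited table, held the table's median of 0.32. Precision limited what could be called: with the SEs of these 45 regions, a log2 fold change between 0.71 at the NCOR1 start and 1.42 at the PPARG start would have been needed to pass.

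**Figure D3:**
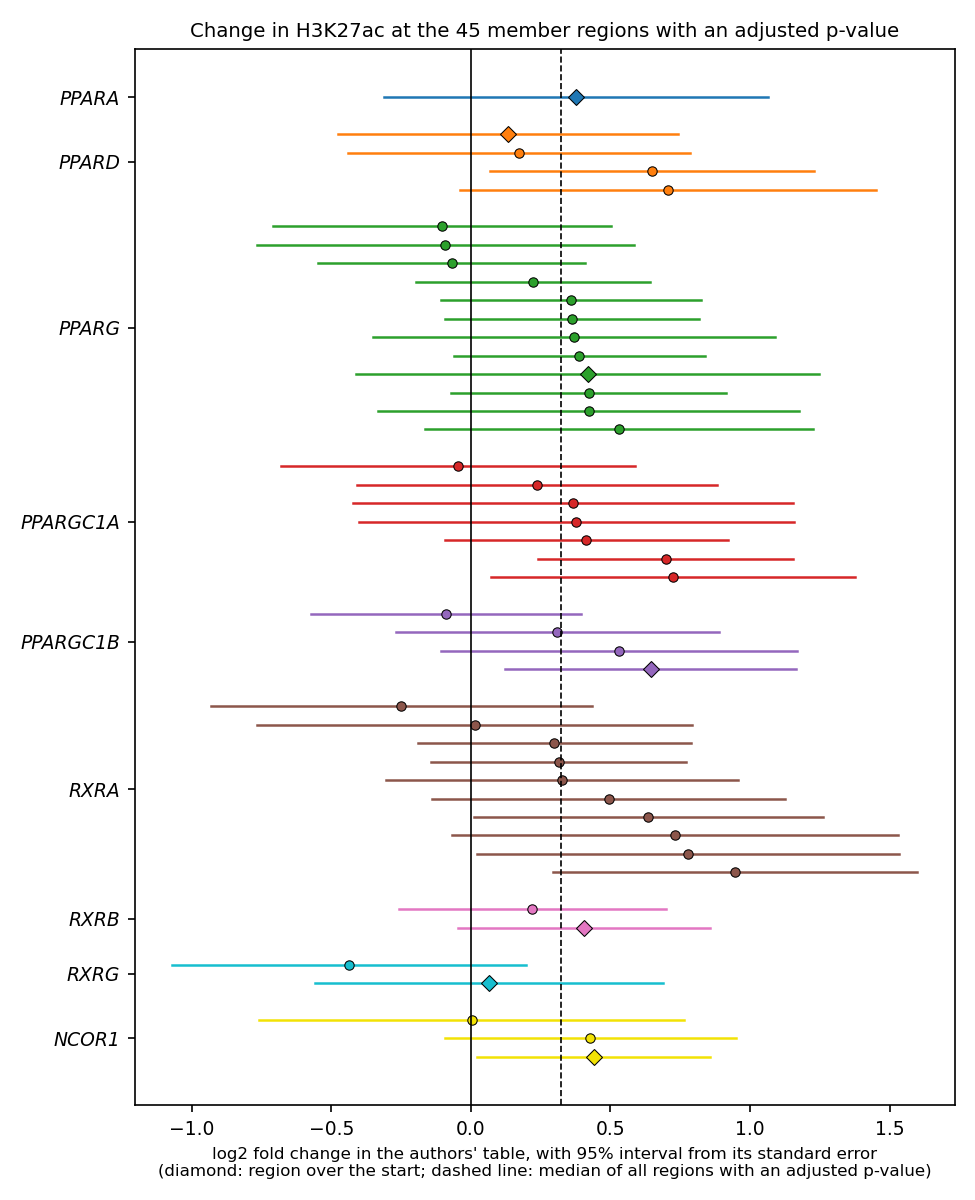
Log2 fold change (horizontal axis) of the 45 tested regions, by gene, with 95% intervals from the SE in the authors' deposited table; diamonds are regions over the start, and the dashed line is the median of all tested regions, 0.32. All intervals but 1, at RXRG, cross the dashed line, and 37 of the 45 cross 0.

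**Figure D4:**
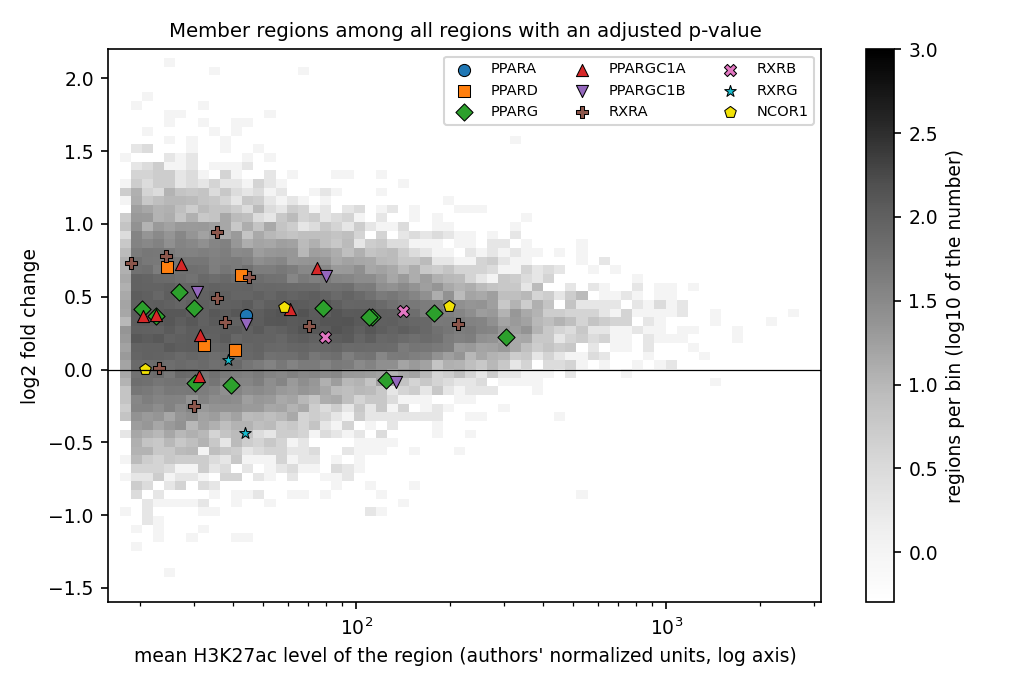
Log2 fold change against mean level (log axis) for the 45 regions, coloured by gene, over all tested regions (grey, darker for more regions per bin). The coloured points lie within the grey cloud, between -0.44 and 0.95.

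Among the PPAR receptors no region passed. The PPARA start had a log2 fold change of 0.38 ± 0.35 (SE) in the authors' deposited table, with adjusted P = 0.511, and was the only tested one of 8 PPARA regions. The PPARD start had 0.13 ± 0.31, adjusted P = 0.793 in the authors' deposited table. A PPARD region 41765 bases into the gene (chr6:35384378-35387480), with a mean level of 42.5, had 0.65 ± 0.30, raw P = 0.0287 and adjusted P = 0.224 in the authors' deposited table. PPARG had 12 tested regions, and its log2 fold changes ran from -0.11 to 0.53 in the authors' deposited table, with 0 raw P under 0.05. The region over its first RefSeq start had 0.39 ± 0.23 (adjusted P = 0.334 in the authors' deposited table), and the start region by the authors' distance 0.42 ± 0.42 (0.544). The 14784-base region past its end had 0.22 ± 0.21 in the authors' deposited table, with a 95% interval from -0.20 to 0.64.

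The RXR receptors had fold changes of both signs, none of which passed, and differences between the receptors were not tested. RXRA had the highest fold change of the 45 regions, at the upstream flank of its start: 0.95 ± 0.33 in the authors' deposited table, a ratio of 1.93, with raw P = 0.00453 and adjusted P = 0.111. Centred on the median it had 0.62. The downstream flank had 0.49 ± 0.32 in the authors' deposited table, with adjusted P = 0.369. RXRA regions 8135 and 86760 bases into the gene had 0.78 ± 0.39 and 0.64 ± 0.32 in the authors' deposited table, with adjusted P = 0.258 and 0.263. The region 11909 bases into the gene, next to the upstream flank in level per kb with 28.3, had -0.25 ± 0.35 in the authors' deposited table, and one at 107996 bases had 0.01 ± 0.40. The RXRA region with the highest mean level had 0.31 ± 0.23 in the authors' deposited table, close to the table's median. The RXRB start had 0.41 ± 0.23, adjusted P = 0.317 in the authors' deposited table. The 1 other RXRB region, also listed with COL11A2, had 0.22 ± 0.24 in the authors' deposited table.

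RXRG was the only gene of the 9 with a negative median, -0.44 over its 7 regions in the authors' deposited table, of which 5 were negative. Its start had 0.06 ± 0.32, adjusted P = 0.905 in the authors' deposited table. The region with the highest mean level listed with RXRG (chr1:165466680-165470133, 43.8 in the authors' deposited table) lies 21484 bases upstream of the start. It had -0.44 ± 0.32 in the authors' deposited table, with adjusted P = 0.423 and a 95% interval from -1.07 to 0.20. This interval lay wholly below the table's median. After the median was subtracted from all fold changes, this region had -0.76, with adjusted P = 0.669. Centred in this way, 5.73% of all tested regions had a raw P under 0.05, 3.13% below the median, and among the 45 this was the only one. At an adjusted P under 0.05 after centring 0 of the 45 passed, against 0.124% of all. The other 5 RXRG regions had mean levels under 10 and no adjusted P in the authors' deposited table.

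Of the coactivators, PPARGC1A had the smallest p-value of the 45 regions. Its region with the highest mean level, 177254 bases upstream of the authors' start, had a log2 fold change of 0.70 ± 0.23 in the authors' deposited table, a ratio of 1.62, with raw P = 0.00274 and adjusted P = 0.0875. A region 54313 bases upstream (chr4:23944390-23946576) had 0.72 ± 0.33 and adjusted P = 0.226 in the authors' deposited table. Weak regions 319837 and 335851 bases upstream, with mean levels of 13.7 and 11.0 and without an adjusted P, had 1.19 ± 0.46 and 1.18 ± 0.57 in the authors' deposited table, with raw P = 0.01 and 0.0389. Like the regions 54313 and 177254 bases upstream, they lie inside the RefSeq span of PPARGC1A. The region over the first RefSeq start, listed with DHX15, had 0.77 ± 0.28, raw P = 0.00664 and adjusted P = 0.131 in the authors' deposited table. The flanks of the authors' start had 0.38 ± 0.40 and 1.06 ± 0.79 in the authors' deposited table. The region 177254 bases upstream, once centred, had 0.37, within 1.96 SE of 0. The 7 tested regions of PPARGC1A ran in the authors' deposited table from log2 values of -0.05 ± 0.32 (chr4:23727116-23729764) to 0.72. Of all 25 regions, 19 were positive and 6 negative, down to -1.37 ± 0.83 at a region with a mean level of 4.02 there.

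PPARGC1B had 0.64 ± 0.27 at its start in the authors' deposited table, a ratio of 1.56, with raw P = 0.0154 and adjusted P = 0.181. A weak region 62668 bases into the gene (chr5:149792965-149793890) had 1.01 ± 0.46 and raw P = 0.0272 in the authors' deposited table, without an adjusted P. The PPARGC1B region with the highest mean level, 135 in the authors' deposited table, lies across the end of the gene and is also listed with PDE6A, a phosphodiesterase gene. It had -0.09 ± 0.25 there. The corepressor NCOR1 had 0.44 ± 0.21 at its start in the authors' deposited table, with raw P = 0.0388 and adjusted P = 0.248. Its next region by level, at the far end of the gene and shared with TTC19, had 0.43 ± 0.27 in the authors' deposited table. Subtracting the median left 0.12 at the NCOR1 start and 0.32 at the PPARGC1B start, each within 1.96 SE of 0.

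Other genes of the pathway were taken from 3 lists, chosen with earlier results of these data known. Regions listed with the 28 of 31 PPAR target genes found in the table included 67 tested ones. Of these, 5 passed in the authors' deposited table, all positive, which is 7.46% against 1.67%, and 26 had raw P under 0.05, or 38.8% against 18.4%. The median log2 fold change of the 67 was 0.49 against 0.32, and the list itself was not tested. Such shares were seen in some marker lists and not in others. Of 43 tested regions of dedifferentiated melanoma markers, 2 passed in the authors' deposited table, both listed with JUN, or 4.65%. Of those 43, 18 had raw P under 0.05, or 41.9%, and their median was 0.47. Among endothelial markers 1 of 16 passed in the authors' deposited table, listed with CDH5, or 6.25%. Of the tested regions of other markers, 0 of 18 melanocyte lineage, 0 of 10 immune, 0 of 8 fibroblast and 0 of 3 keratinocyte ones passed. Raw P was under 0.05 for 5.56%, 20.0%, 0% and 0% of them, and for 31.25% of the endothelial ones. These marker results were chosen after their values were seen. Of the 5 regions of PPAR targets, 1 was listed with ANGPTL4, a secreted inhibitor of lipoprotein lipase, with 1.57 ± 0.20 in the authors' deposited table. Others were listed with FABP3, a fatty acid binding protein (1.35 ± 0.24), and HADHB, a subunit of the mitochondrial trifunctional protein (1.27 ± 0.27). A region listed with both PLIN4 and PLIN5, genes of lipid droplet coat proteins, had 1.06 ± 0.22 and one beside PLIN2, another coat protein, 0.82 ± 0.18 in the authors' deposited table. After centring, ANGPTL4 and FABP3 still passed (adjusted P = 1.57e-05 and 0.0310), and HADHB, PLIN4 and PLIN2 did not.

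The lists of partners gave shares nearer to that of the table. Among 13 other partners of RXR, 1 of 47 passed, or 2.13%, and 7 had raw P under 0.05, or 14.9% against 18.4%. The region that passed was listed with the orphan receptor gene NR4A2, 5848 bases from its start (0.87 ± 0.25, adjusted P = 0.0428 in the authors' deposited table). It did not pass after centring (adjusted P = 0.76). Among 12 partner factors of PGC-1 and their targets, 0 of 28 passed with DESeq2 in the authors' deposited table and 4 had raw P under 0.05, or 14.3% against 18.4%. The smallest p-values there belonged to regions listed with ESRRA (0.66 ± 0.26, adjusted P = 0.162) and ESRRG (0.85 ± 0.34, 0.164). Both genes encode estrogen-related receptors. The ESRRA region lies over the start and is also listed with TEX40. The ESRRG region lies far from the start, at a distance of -411080 in the authors' deposited table. Median log2 fold changes over tested regions in the authors' deposited table were 0.29 and 0.28 for the RXR partners and PGC-1 partners.

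The label of the cells was checked against the mark at starts of marker genes. Of 7 melanocyte lineage markers, MITF, SOX10 and PMEL had a start region, at 24.7, 41.2 and 27.9 per kb, and MLANA, TYR, DCT and TYRP1 had none. All 5 markers of dedifferentiated melanoma (AXL, EGFR, FOSL1, JUN and SOX9) had one, from 13.2 per kb at SOX9 to 46.8 per kb at FOSL1. None of the keratinocyte, fibroblast, immune and endothelial markers examined had a region over its start, and KRT1 had no region in the authors' deposited table. Regions away from the start were listed with other markers of these types, with mean levels in the authors' deposited table of up to 408 for PTPRC, 164 for PECAM1, 148 for CDH5 and 102 for COL1A1. The highest listed with MITF was 370 and the highest member region 304. These mean levels are not divided by width, so they do not order the loci by strength.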

How the data were processed

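H3K27ac was profiled in 4 libraries of A375 cells, 2 per group by the treatment in the labels. Per the submitters' processing notes, which give no role or order, hg38, Trim Galore, cutadapt, FastQC, Bowtie2, Picard, MACS2, featureCounts, DESeq2 and bedtools 2.29.1 were used. The deposited mean level is a normalized signal (baseMean in the file header). The log2 fold change and its SE are the authors' values on the log2 scale, per the file headers. The deposited score equals their ratio, the p-value is its two-sided normal p-value, and the authors' adjusted value, where 1, was read as not computed. Depth per library is unknown, and 0 columns of single libraries were left out.

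Lines repeating a region were merged, and levels were divided by width. Intervals are 95% normal intervals. Centring subtracted the median log2 fold change of tested regions and repeated the normal test and Benjamini-Hochberg adjustment (scipy 1.17.1). The procedure was run on simulated data with normal errors and planted changes larger than those of the members. That run does not show how it performs at changes of the size seen here. Coordinates are as in the table, apart from RefSeq positions and sequence windows (GRCh38.p14, counted from 1). All 9 symbols matched RefSeq. Regions were named by rule: each gene's start region, the one with the highest mean level and the one with the smallest p-value, and those with an unadjusted p-value under 0.05, up to 4 called genes per list by p-value or, where none was called, the 2 with the smallest p-values. Regions beyond the rule, such as flanks of starts, gene ends, the DHX15 region and PLIN2, were chosen after their values were seen. Members and lists were chosen with earlier results of these data known. The planned test per library could not be run on 1 comparison. The results of 1 further gene list are not reported here.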

Additional observations from a re-analysis of the deposited data

How the results depend on the processing

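No member region passed under any setting tried: a threshold of 0.01, adjustment over all distinct regions, centring, counting of lines, an absolute log2 fold change no smaller than 1, or addition of the regions in the PPARGC1A span listed with DHX15, each with 0. Over the whole table the 608 calls became 128, 250, 45, 631 and 319 in the first 5 of these. The main call already held 0 member regions. The threshold of 0.01 and the minimum fold change select within that call, and adjustment over all distinct regions is stricter. These settings could therefore only give 0, which adds no support. Counting of lines left the member set unchanged at 111. Centring and addition of the DHX15 regions could have added calls, and neither did. The member median of 0.30 was 0.37 for mean levels from 10 upward and for tested regions, 0.41 at starts, 0.38 for the region with the highest mean level per gene, 0.30 as a weighted mean and 0.31 with the DHX15 regions. Over all regions the same settings gave 0.32, 0.32, 0.36, 0.35 and 0.30. Without each gene in turn it was lowest, 0.25, without RXRA or NCOR1, 0.26 without PPARG or PPARGC1B, and highest, 0.32, without RXRG. The cause was not tested. The median start level of the members, at percentile 35.4 per kb among all start regions, was at 21.3 when not divided by width. A different measure, the level per kb of all regions of each gene summed, had its median at percentile 23.7 among all genes. With regions over RefSeq windows the same RXRG region was the median, so the unchanged value of 35.4 gives no separate support. That set lacks the start regions of PPARD and PPARGC1B and holds a region listed with DHX15. For PPARG it holds the region over the first RefSeq start (20.3 per kb) in place of the authors' start region. It also holds the RXRA region with the highest mean level (25.2 per kb). The DHX15 regions, RefSeq windows and gene omissions were chosen after seeing the data. No paired analysis was possible because the table holds no value per library, and for the same reason TMM or size factors, a count filter and leaving out libraries were not run.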

Other observations

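Regions listed with the 9 genes were also divided by distance to the authors' start. Within 10 kb of a start but not over it, 14 regions had a median of 12.7 per kb, beside 15.3 per kb for all such regions, and 57 regions at 10 to 100 kb had 12.9 beside 15.0. Beyond 100 kb the order was the other way, with 16.1 per kb over 33 regions beside 13.9. Most of these distant regions belong to PPARG, PPARGC1A and RXRA. Over tested regions the medians of the log2 values in the authors' deposited table were 0.41 over 7 start regions, 0.46 over 6 within 10 kb, 0.37 over 21 at 10 to 100 kb and 0.22 over 11 beyond 100 kb. All regions of the table gave 0.35, 0.35, 0.32 and 0.27 in the same classes.

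Of the 6 regions in the RefSeq span of PPARGC1A that are listed with DHX15, the one with the highest mean level (chr4:24319123-24327079) had a mean level of 174 and a log2 fold change of 0.31 ± 0.22 (SE) in the authors' deposited table. Its mean level is above that of every region listed with PPARGC1A itself, of which the highest had 74.7.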
